A study of Homo sapiens with 9 samples.

Results

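The HOX genes were taken as every non-control probe of the arrays whose gene name was HOXA, HOXB, HOXC or HOXD followed by a number, with antisense transcripts left out. This gave 39 HOX genes (11 HOXA, 10 HOXB, 9 HOXC and 9 HOXD) of 36337 gene names, measured by 45 of 50599 probes. RNA came from RKO, a human colorectal cancer cell line with extensive CpG island methylation, and was hybridised to 9 single-colour oligonucleotide arrays. The control siRNA with mock treatment (siCONT), an siRNA against UHRF1 with mock treatment (siUHRF1), the control siRNA with the histone deacetylase inhibitor trichostatin A (siCONT + TSA) and the UHRF1 siRNA with TSA (siUHRF1 + TSA) were represented by 2 arrays each. Replicates 1 and 2 of siUHRF1 and of siUHRF1 + TSA held different siRNAs, siUHRF1-1 and siUHRF1-2. Cells received siRNA for 72 h and were then exposed to 300 nM TSA or to ethanol for 24 h. A single array held RKO cells that received 5-aza-dC (decitabine), an inhibitor of DNA methyltransferases, at 1 µM for 72 h and no siRNA. UHRF1 depletion was transient and was made in a single cell line. Since their siRNAs differed, the 2 arrays of each UHRF1 siRNA group came from separate transfections. For siCONT and siCONT + TSA, the sources used here do not say whether the arrays came from separate cultures. The p-values rest on a spread between arrays of a group that is pooled over all groups of the fit, including groups not compared. Over probes well above background on every siRNA array, the median absolute log2 difference between the 2 arrays was 0.061 in siCONT and 0.065 in siCONT + TSA. It was 0.25 in siUHRF1 and 0.175 in siUHRF1 + TSA, where the siRNAs differed. For siCONT and siCONT + TSA the spread may be technical.

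HOX proteins are homeodomain transcription factors that give cells their position along the body axis. Their genes lie in clusters on separate chromosomes, and genes at the same place in different clusters form paralog groups, numbered from the anterior (low) to the posterior (high) end. Within a cluster the order of the genes follows the order in which they are used along the axis. Polycomb complexes keep HOX genes silent, trithorax complexes keep them active, retinoic acid turns on anterior members, and TALE homeodomain proteins (PBX, MEIS and PKNOX) bind DNA together with HOX proteins. Maintenance of DNA methylation depends on UHRF1, which brings the methyltransferase DNMT1 to DNA that has just been replicated. In intestinal epithelium and in its tumours many HOX genes are expressed, and CpG islands within the clusters are frequent sites of methylation in cancer.

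Values are log2 signals minus the 75th percentile of the same array, and when 2 values are given for a group they are replicate 1 and then replicate 2. The place of the 5-aza-dC sample among the others depends on the scaling, since scaling on spike-in probes lowers its differences from siCONT by 1.89, and no order is read from it for genes detected throughout. The probes of the clusters lay at chr7:27132616-27236733 (HOXA), chr17:46607916-46802203 (HOXB), chr12:54340034-54449814 (HOXC) and chr2:176960600-177055431 (HOXD) of hg19, the build of the array annotation. The 75th percentile of the processed signal ran from 244 to 336 in the 8 siRNA samples and reached 815 in the 5-aza-dC sample. Signals flagged as well above background made up 43.6% to 46.6% of probes in the siRNA samples and 51.6% in the 5-aza-dC sample. No spot was saturated. The siRNA arrays shared slide 1 and scan 1, with mock arrays in row 1 and TSA arrays in row 2, siCONT in columns 1 and 2 and siUHRF1 in columns 3 and 4, so that drug and row, and siRNA and column, cannot be told apart. The 5-aza-dC array was on slide 2 and scan 2, so that drug, slide, scan and transfection cannot be told apart.

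The siRNA target was measured first. UHRF1 was at 2.69 and 2.70 in siCONT, 0.37 and 0.083 in siUHRF1, 2.88 and 2.87 in siCONT + TSA, -0.33 and -0.61 in siUHRF1 + TSA and 3.70 in the 5-aza-dC sample. UHRF1 was lower in siUHRF1 than in siCONT by a log2 difference of -2.47 ± 0.14 (SE, adjusted p = 0.00239), and the difference was -3.35 ± 0.14 (SE, adjusted p = 0.000131) between siUHRF1 + TSA and siCONT + TSA, so that the arrays of each pair of groups did not overlap. Of 8 colorectal epithelial markers, KRT8, KRT18 and CDX2 were well above background on both siCONT arrays, EPCAM on 1 of them, and KRT19, KRT20, VIL1 and CDH1 on neither. VIL1 and CDH1 were below background on all 9 arrays.

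Most HOX genes were expressed in these cells, and by the flag for signal well above background the genes detected were the same in all siRNA groups. The same 28 of 39 HOX genes (71.8%) were well above background on every siRNA array. By a looser flag, for a positive signal significantly over background, 29 were detected in siCONT, 31 in siUHRF1, 31 in siCONT + TSA and 35 in siUHRF1 + TSA. Of all gene names, between 44.8% and 46.7% were above background on both arrays of a group. Detection differed between clusters: 9 of 11 HOXA, 9 of 10 HOXB and 7 of 9 HOXC genes were detected, against 3 of 9 HOXD genes, which were HOXD3, HOXD8 and HOXD9. By position, 14 of 15 central genes (paralog groups 4 to 8), 4 of 8 anterior genes (1 to 3) and 10 of 16 posterior genes (9 to 13) were detected. The exception among central genes was HOXD4. On the 5-aza-dC array 35 of 39 HOX genes (89.7%) were well above background, beside 53.9% of all gene names. The genes below background on all 9 arrays included HOXB1, HOXD4 and HOXD12, and their log2 values there ranged from -6.89 to -4.38.

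**Figure D1:**
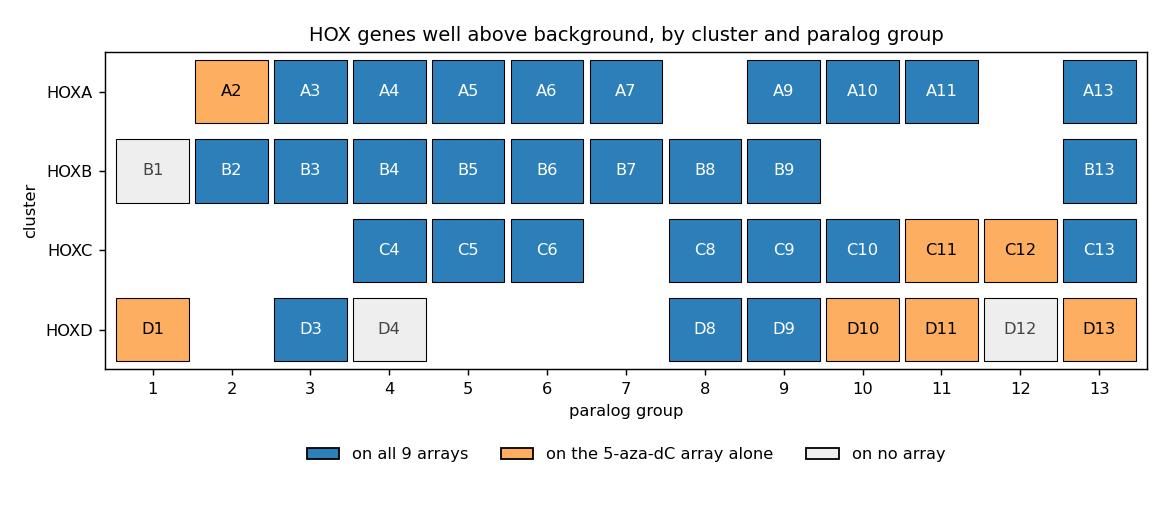
Each box is a HOX gene, placed by cluster (rows) and paralog group (columns), and coloured by the arrays on which its probe was well above background. Of the genes drawn, 28 were detected on all 9 arrays, 7 on the 5-aza-dC array alone and 3 on none, and 6 of the 10 genes outside the first class are HOXD genes.

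UHRF1 depletion alone was compared with control siRNA to ask which HOX genes respond to loss of UHRF1 by itself. No HOX gene was called higher or lower in siUHRF1 than in siCONT (0 of 28 tested, limma, Benjamini-Hochberg adjusted p below 0.05), beside 0.626% of gene names called higher and 0.0282% called lower. At an unadjusted limma p below 0.05 there were 2 HOX genes, HOXC6 and HOXC13, beside 1579 of 17721 gene names. The methods' t-test also gave 2, beside 1823 of 23716 probes. The log2 differences ran from -0.31 (HOXC8) to 0.48 (HOXB7), with standard errors of 0.086 to 0.57, and their median was 0.028, beside -0.0027 for all gene names. The sign of this median turned with 1 array, since it was 0.18 without siUHRF1 replicate 1 and -0.080 without siUHRF1 replicate 2. HOXC6 was at 3.003 and 2.97 in siCONT, 3.25 and 3.21 in siUHRF1, 3.19 and 3.13 in siCONT + TSA, 2.98 and 3.09 in siUHRF1 + TSA and 2.77 in the 5-aza-dC sample. The mean difference between siUHRF1 and siCONT was 0.24 ± 0.092 (SE, adjusted p = 0.512). For HOXC13, a regulator of hair keratin genes, the mean difference was 0.42 ± 0.16 (SE, adjusted p = 0.515).

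Genes of the HOXA, HOXB and HOXC clusters were higher with TSA alone. Of 28 HOX genes tested, 7 were called higher in siCONT + TSA than in siCONT, beside 6.94% of gene names, and 0 were called lower, beside 3.88%. They were HOXB2, HOXB6 and HOXB8, HOXA7, HOXA9 and HOXA11, and HOXC9. The median log2 difference over the 28 genes was 0.37 and 24 of 28 (85.7%) were above 0, beside 0.081 and 59.4% for all gene names. By cluster the median was 0.68 in HOXB (9 of 9 above 0), 0.36 in HOXA (8 of 9), 0.20 in HOXC (5 of 7) and 0.039 in HOXD (2 of 3). Without any 1 of the 4 arrays compared, that is either siCONT array or either siCONT + TSA array, 0 of the 28 genes were called, and with normexp background correction or spike-in scaling the number called was 1, HOXB8. The log2 differences of the 7 genes stayed above 0 under all 21 alternatives run.

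HOXB8, which sustains the self-renewal of myeloid progenitors, was at 1.27 and 1.24 in siCONT, 1.05 and 1.48 in siUHRF1, 2.62 and 2.67 in siCONT + TSA, 2.66 and 3.29 in siUHRF1 + TSA and 1.32 in the 5-aza-dC sample. The TSA arrays lay above all siRNA arrays without TSA, and the difference between siCONT + TSA and siCONT was 1.39 ± 0.23 (SE, adjusted p = 0.0207). The HOXB8 probe lies at chr17:46689835-46689894 of hg19. HOXB2, a hindbrain patterning gene, was at 4.02 and 4.01 in siCONT, 4.07 and 4.17 in siUHRF1, 4.90 and 4.91 in siCONT + TSA, 5.04 and 4.99 in siUHRF1 + TSA and 4.38 in the 5-aza-dC sample, and the difference with TSA was 0.89 ± 0.089 (SE, adjusted p = 0.00931). Both TSA groups were above the other siRNA groups. A second HOXB2 probe gave 0.64 ± 0.16 (SE, adjusted p = 0.053). HOXB6 was at 3.52 and 3.47 in siCONT, 3.60 and 3.70 in siUHRF1, 4.23 and 4.23 in siCONT + TSA, 4.22 and 4.23 in siUHRF1 + TSA and 4.71 in the 5-aza-dC sample, with a difference of 0.73 ± 0.089 (SE, adjusted p = 0.0116). The 4 TSA arrays lay close together, above the siCONT and siUHRF1 arrays.

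HOXA9, a regulator of haematopoietic progenitors and a leukaemia gene, was at 4.19 and 4.18 in siCONT, 4.23 and 4.18 in siUHRF1, 4.91 and 4.91 in siCONT + TSA, 4.88 and 4.83 in siUHRF1 + TSA and 4.71 in the 5-aza-dC sample. The difference with TSA was 0.72 ± 0.086 (SE, adjusted p = 0.0113), and no array without TSA reached the TSA arrays among the siRNA samples. A second HOXA9 probe gave 0.41 ± 0.12 (SE, adjusted p = 0.0887). HOXA11, which patterns the uterus, kidney and forelimb, was at -0.80 and -0.91 in siCONT, -0.97 and -0.77 in siUHRF1, 0.0041 and -0.062 in siCONT + TSA, 0.26 and 0.12 in siUHRF1 + TSA and 0.20 in the 5-aza-dC sample, with a difference of 0.83 ± 0.11 (SE, adjusted p = 0.0142). Both TSA groups were above siCONT and siUHRF1. HOXA7 was at 2.45 and 2.41 in siCONT, 2.19 and 2.55 in siUHRF1, 3.22 and 3.13 in siCONT + TSA, 3.0 and 3.17 in siUHRF1 + TSA and 3.18 in the 5-aza-dC sample, with a difference of 0.75 ± 0.14 (SE, adjusted p = 0.0283). HOXC9, a gene of thoracic identity, was at 0.70 and 0.80 in siCONT, 0.60 and 0.86 in siUHRF1, 1.34 and 1.40 in siCONT + TSA, 1.09 and 1.35 in siUHRF1 + TSA and 2.04 in the 5-aza-dC sample, with a difference of 0.62 ± 0.14 (SE, adjusted p = 0.0415). For HOXC9 the siRNA arrays with and without TSA did not overlap.

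**Figure D2:**
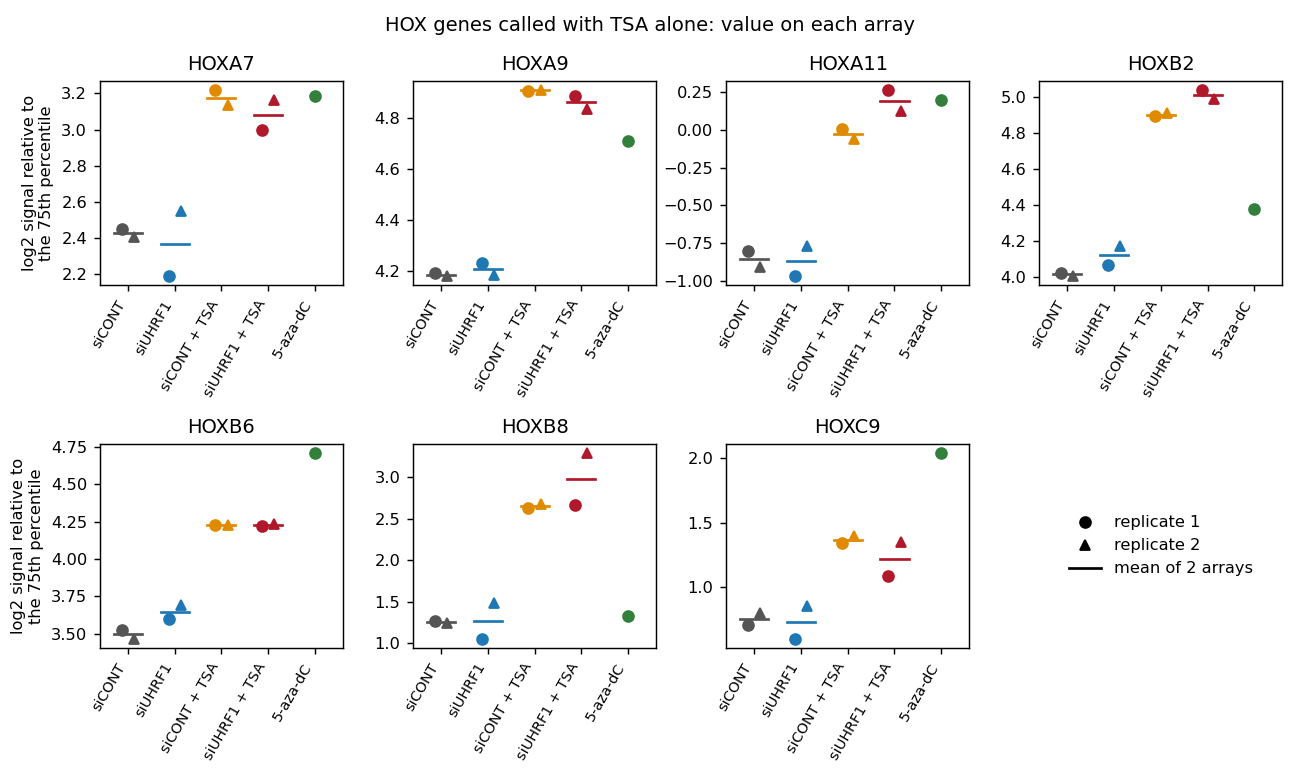
Log2 signal relative to the 75th percentile of the array (vertical axis, a separate scale in each panel) on each of the 9 arrays for the 7 HOX genes called with TSA alone, with circles for replicate 1, triangles for replicate 2 and lines for the mean of 2 arrays. In each panel the siCONT + TSA arrays lie above the siCONT arrays, and HOXB8 shows the widest step, from 1.27 and 1.24 to 2.62 and 2.67.

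The other detected HOXB genes did not pass the test with TSA alone. HOXB7 was at -3.82 and -3.69 in siCONT, -3.22 and -3.33 in siUHRF1, -2.64 and -2.98 in siCONT + TSA, -3.02 and -2.26 in siUHRF1 + TSA and -2.92 in the 5-aza-dC sample, a difference of 0.95 ± 0.25 (SE, adjusted p = 0.0668). HOXB5, which acts in the enteric neural crest, was at 0.20 and 0.17 in siCONT, 0.038 and 0.62 in siUHRF1, 0.80 and 0.93 in siCONT + TSA, 0.86 and 1.17 in siUHRF1 + TSA and 0.85 in the 5-aza-dC sample, a difference of 0.68 ± 0.21 (SE, adjusted p = 0.0907). HOXB4, which expands haematopoietic stem cells, was at 0.85 and 0.84 in siCONT, 0.92 and 0.85 in siUHRF1, 1.23 and 1.13 in siCONT + TSA, 1.42 and 1.38 in siUHRF1 + TSA and 1.38 in the 5-aza-dC sample, a difference of 0.34 ± 0.091 (SE, adjusted p = 0.0677). For these 3 genes the siRNA arrays with and without TSA did not overlap. The share of all gene names that separate likewise is not given, so nothing is read from this. HOXB13, a gene of prostate and hindgut, was at 1.12 and 1.02 in siCONT, 0.90 and 1.39 in siUHRF1, 1.73 and 1.66 in siCONT + TSA, 1.21 and 1.91 in siUHRF1 + TSA and 1.02 in the 5-aza-dC sample. HOXB3 was at -1.90 and -2.02 in siCONT, -2.01 and -1.95 in siUHRF1, -1.92 and -1.85 in siCONT + TSA, -1.81 and -1.77 in siUHRF1 + TSA and -2.13 in the 5-aza-dC sample. HOXB9 was at 3.97 and 4.04 in siCONT, 4.09 and 4.21 in siUHRF1, 4.07 and 4.09 in siCONT + TSA, 4.19 and 4.24 in siUHRF1 + TSA and 3.72 in the 5-aza-dC sample. For HOXB3 and HOXB9 the differences with TSA alone were 0.077 and 0.080, so that the response was unequal within the HOXB cluster.

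In the HOXA cluster the other 6 detected genes were not called with TSA. HOXA10, a uterine and haematopoietic gene, was at 1.57 and 1.66 in siCONT, 1.33 and 2.36 in siUHRF1, 2.10 and 1.89 in siCONT + TSA, 1.88 and 2.45 in siUHRF1 + TSA and -0.85 in the 5-aza-dC sample. HOXA3 was at -2.87 and -3.03 in siCONT, -3.85 and -2.27 in siUHRF1, -3.11 and -3.05 in siCONT + TSA, -3.30 and -2.12 in siUHRF1 + TSA and -1.61 in the 5-aza-dC sample. HOXA4 was at -0.24 and -0.19 in siCONT, -0.40 and 0.039 in siUHRF1, -0.055 and -0.050 in siCONT + TSA, -0.71 and -0.24 in siUHRF1 + TSA and -0.76 in the 5-aza-dC sample. Of these, HOXA3 had the widest spread between the siUHRF1 siRNAs. HOXA5 was at 0.82 and 0.84 in siCONT, 0.80 and 0.87 in siUHRF1, 0.80 and 0.90 in siCONT + TSA, 0.95 and 1.16 in siUHRF1 + TSA and 0.99 in the 5-aza-dC sample. HOXA6 was at -0.19 and -0.30 in siCONT, -0.72 and -0.015 in siUHRF1, 0.17 and 0.058 in siCONT + TSA, 0.057 and 0.39 in siUHRF1 + TSA and -0.18 in the 5-aza-dC sample. HOXA13, which acts in digits and hindgut, was at -1.24 and -1.01 in siCONT, -1.34 and -1.22 in siUHRF1, -0.84 and -0.97 in siCONT + TSA, -1.10 and -0.82 in siUHRF1 + TSA and -0.91 in the 5-aza-dC sample. By the brightest probe of each gene, the differences with TSA alone in these 6 genes ran from -0.13 in HOXA3 to 0.38 in HOXA10. The second probes of HOXA10 and HOXA6 gave 0.73 ± 0.33 (SE, adjusted p = 0.206) and 0.57 ± 0.20 (SE, adjusted p = 0.131).

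The other HOXC and HOXD genes were not called with TSA alone. HOXC4 was at 0.54 and 0.48 in siCONT, 0.50 and 0.83 in siUHRF1, 1.01 and 1.04 in siCONT + TSA, 1.08 and 1.42 in siUHRF1 + TSA and 0.17 in the 5-aza-dC sample. HOXC8 was at 0.43 and 0.42 in siCONT, -0.17 and 0.40 in siUHRF1, 0.91 and 0.96 in siCONT + TSA, 0.30 and 0.58 in siUHRF1 + TSA and -0.029 in the 5-aza-dC sample. HOXC5 was at -2.53 and -2.44 in siCONT, -2.61 and -2.69 in siUHRF1, -2.70 and -2.81 in siCONT + TSA, -2.59 and -2.32 in siUHRF1 + TSA and -3.56 in the 5-aza-dC sample. With TSA alone HOXC4 and HOXC8 differed by 0.52 and 0.50, and HOXC5 by -0.27, and none of these passed the test. HOXD9 was at -0.87 and -0.72 in siCONT, -0.83 and -0.90 in siUHRF1, -0.45 and -0.32 in siCONT + TSA, -0.43 and -0.28 in siUHRF1 + TSA and -0.61 in the 5-aza-dC sample, a difference of 0.41 ± 0.11 (SE, adjusted p = 0.0716). HOXD8 was at -1.73 and -1.69 in siCONT, -1.72 and -1.64 in siUHRF1, -1.87 and -2.29 in siCONT + TSA, -1.82 and -2.04 in siUHRF1 + TSA and -2.54 in the 5-aza-dC sample. HOXD3 was at 0.30 and 0.27 in siCONT, 0.18 and 0.42 in siUHRF1, 0.30 and 0.35 in siCONT + TSA, 0.11 and 0.32 in siUHRF1 + TSA and -0.22 in the 5-aza-dC sample. By the brightest probe of each gene, HOXD8 had the most negative difference with TSA alone, -0.37 ± 0.16 (SE, adjusted p = 0.188). The HOXD3 and HOXD9 probes disagreed, and their second probes gave -0.73 ± 0.23 (SE, adjusted p = 0.098) and -0.28 ± 0.28 (SE, adjusted p = 0.551).

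UHRF1 depletion combined with TSA was compared with control siRNA, and the number of HOX genes called was larger. Of 28 HOX genes, 13 were called higher in siUHRF1 + TSA than in siCONT, beside 16.0% of gene names, and 0 were called lower, beside 8.12%. These were HOXB2, HOXB4, HOXB5, HOXB6, HOXB7 and HOXB8, HOXA7, HOXA9 and HOXA11, HOXC4, HOXC10 and HOXC13, and HOXD9. The median difference was 0.48 (25 of 28 above 0), beside 0.066 for all gene names. This median was 0.32 without siUHRF1 + TSA replicate 2 (21 of 28 above 0) and 0.64 without siUHRF1 + TSA replicate 1 (26 of 28). With spike-in scaling it was 0.33 (22 of 28). HOXB8 rose by 1.72 ± 0.23 (SE, adjusted p = 0.005), HOXB7 by 1.11 ± 0.25 (SE, adjusted p = 0.0259) and HOXA11 by 1.05 ± 0.11 (SE, adjusted p = 0.00264). The HOXB7 difference ran from 0.36 with normexp background correction to 1.49 without siUHRF1 + TSA replicate 1, was 0.74 without siUHRF1 + TSA replicate 2, and lost its call under 8 of 21 alternatives. HOXD9, HOXA7 and HOXB5 lost theirs under 12, 9 and 8 of them. The number called was 5 without siCONT replicate 1, 7 without siCONT replicate 2, 7 without siUHRF1 + TSA replicate 2, 7 with normexp background correction, 6 with spike-in scaling, 8 with no filter on dim probes and 0 by the methods' t-test after adjustment. The comparison shares its siCONT arrays with the TSA comparison, so that the lists called are not independent of each other.

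HOXC10 and HOXC13 were called with the combination but not with TSA alone. HOXC10, a gene of lumbar and hindlimb identity, was at -3.51 and -2.95 in siCONT, -2.91 and -2.98 in siUHRF1, -3.38 and -3.12 in siCONT + TSA, -2.42 and -2.15 in siUHRF1 + TSA and -0.86 in the 5-aza-dC sample. Its difference from siCONT was -0.019 ± 0.21 (SE, adjusted p = 0.964) with TSA alone and 0.95 ± 0.21 (SE, adjusted p = 0.0234) with the combination. HOXC13 was at -1.89 and -1.71 in siCONT, -1.57 and -1.18 in siUHRF1, -1.70 and -1.50 in siCONT + TSA, -0.81 and -0.88 in siUHRF1 + TSA and -0.51 in the 5-aza-dC sample, with differences of 0.20 ± 0.16 (SE, adjusted p = 0.464) and 0.95 ± 0.16 (SE, adjusted p = 0.00992). For both genes the siUHRF1 + TSA arrays lay above the other siRNA arrays. The HOXC10 call was lost under 9 of 21 alternatives, among them normexp, quantile normalization, spike-in scaling, no filter on dim probes and leaving out siCONT replicate 1 or either siUHRF1 + TSA array, and the difference ran from 0.39 with normexp to 1.23 without siCONT replicate 2. The HOXC13 call was lost under 3 of 21.

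The added effect of UHRF1 depletion under TSA was tested directly by comparing siUHRF1 + TSA with siCONT + TSA. No HOX gene was called (0 of 28 by limma), beside 3.27% of gene names called higher and 0.559% called lower. At an unadjusted limma p below 0.05 there were 4 of 28, beside 3165 of 17721 gene names, and all 4 were HOXC genes. The methods' t-test also gave 4 at an unadjusted p, beside 3645 of 23717 probes. The differences of HOXC10 and HOXC13 were 0.97 ± 0.21 (SE, adjusted p = 0.0708) and 0.76 ± 0.16 (SE, adjusted p = 0.0663). The other pair was HOXC5, at 0.30 ± 0.12 (SE, adjusted p = 0.283), and HOXC8, at -0.49 ± 0.20 (SE, adjusted p = 0.278). With the replicate number as a block, which pairs the siUHRF1 siRNAs, HOXC10 was called, and HOXC13 was called with a trended and robust prior and without either siUHRF1 array. The median over HOX genes was 0.12, beside -0.0039 for all gene names, and it was -0.014 without siUHRF1 + TSA replicate 2. The interaction term compares the effect of UHRF1 depletion with and without TSA. It called no HOX gene (0 of 28 by limma), beside 0.361% of gene names called higher and 0.0282% called lower. At an unadjusted limma p below 0.05 there were 2, HOXC5 and HOXC6, beside 883 of 17721 gene names.

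HOX genes were also higher with TSA in UHRF1-depleted cells. Of 28, 8 were called higher in siUHRF1 + TSA than in siUHRF1, beside 10.8% of gene names, and 0 were called lower, beside 5.45%. These were HOXB2, HOXB4, HOXB6 and HOXB8, HOXA7, HOXA9 and HOXA11, and HOXD9. HOXB8 rose by 1.71 ± 0.23 (SE, adjusted p = 0.00882) and HOXB2 by 0.90 ± 0.089 (SE, adjusted p = 0.00393). The number called was 3 with normexp background correction or spike-in scaling, 2 with only the arrays of the groups compared, 0 by the methods' t-test after adjustment, and 5 without any 1 of the siCONT or siCONT + TSA arrays. It was 13 without siUHRF1 replicate 2.

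The siUHRF1-1 and siUHRF1-2 samples differed in HOX signal. In the mock-treated pair, 21 of 28 HOX genes were higher with siUHRF1-2, with a median difference of 0.16, beside 64.0% and 0.12 for the 20754 probes well above background on every siRNA array. In the TSA-treated pair, 22 of 28 were higher with siUHRF1-2, with a median of 0.24, beside 53.2% and 0.021. In the siCONT and siCONT + TSA pairs 12 and 16 of 28 were higher in replicate 2, with medians of -0.011 and 0.011. HOXA3 showed the widest gap in both depleted pairs, 1.58 without TSA and 1.18 with TSA. These differences within a group are described and were not tested.

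**Figure D3:**
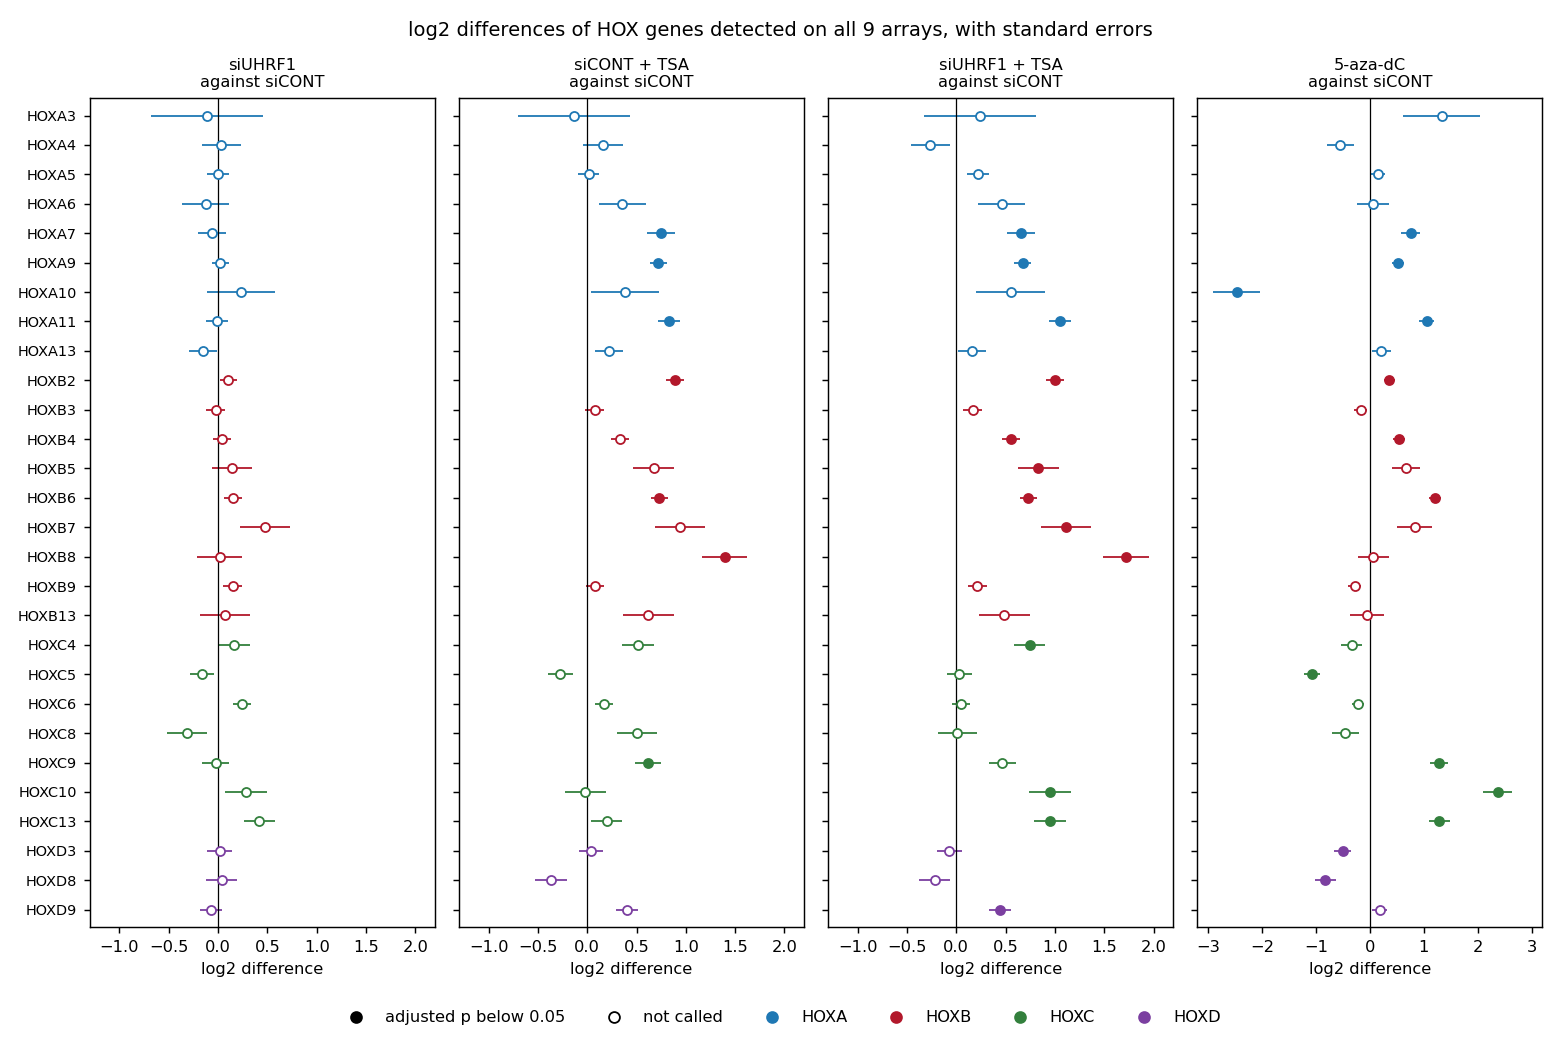
Log2 difference from siCONT (horizontal axes, wider in the 5-aza-dC panel) for each of the 28 HOX genes detected on all 9 arrays, ordered by cluster and number, with bars for the standard error and filled points for an adjusted p below 0.05. Filled points number 0 with siUHRF1, 7 with TSA, 13 with the combination and 13 with 5-aza-dC (9 higher and 4 lower).

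On the 5-aza-dC array HOX genes were well above background that were not so flagged on any siRNA array, most of them posterior HOXD and HOXC genes. Detection here means that flag, and by the looser flag more HOX genes were detected in the siRNA samples, as given above. Of the 11 HOX genes below background on all 8 siRNA arrays, 7 (63.6%) were well above background on the 5-aza-dC array, beside 1828 of 16594 gene names (11.0%). They were HOXD13, HOXD10, HOXD11 and HOXD1, HOXC12 and HOXC11, and HOXA2. The number detected counts flags set by the scanner software on each array and does not depend on the scaling between arrays. A single array was available for 5-aza-dC, which the test assumes to vary like the other groups, and its brighter signal accompanied a larger share of detected probes.

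HOXD13, which patterns digits, was at -6.45 and -6.32 in siCONT, -6.60 and -6.51 in siUHRF1, -6.32 and -6.20 in siCONT + TSA, -6.42 and -6.42 in siUHRF1 + TSA and 0.43 in the 5-aza-dC sample. The processed signal of its probe was between 3.02 and 3.52 in the siRNA samples and 1100 with 5-aza-dC. HOXD10, a gene of hindlimb motor neurons, was at -6.20 and -6.06 in siCONT, -6.34 and -6.18 in siUHRF1, -6.02 and -5.91 in siCONT + TSA, -5.69 and -4.14 in siUHRF1 + TSA and -1.33 in the 5-aza-dC sample. The siUHRF1 + TSA replicate 2 array was the highest of the siRNA arrays for HOXD10 without being well above background. HOXD1 was at -6.46 and -6.35 in siCONT, -6.61 and -6.51 in siUHRF1, -6.17 and -6.19 in siCONT + TSA, -6.36 and -6.26 in siUHRF1 + TSA and -2.98 in the 5-aza-dC sample. HOXC12 was at -6.68 and -6.59 in siCONT, -6.83 and -6.74 in siUHRF1, -6.52 and -6.40 in siCONT + TSA, -5.48 and -5.89 in siUHRF1 + TSA and -3.11 in the 5-aza-dC sample. HOXD11 was at -5.81 and -6.33 in siCONT, -6.35 and -6.50 in siUHRF1, -4.37 and -5.33 in siCONT + TSA, -6.33 and -6.28 in siUHRF1 + TSA and -3.60 in the 5-aza-dC sample. For HOXD13, HOXD1 and HOXC12 the siRNA arrays lay at the low end of the scale, and for HOXD11 siCONT + TSA replicate 1 was the highest of them. HOXA2, which specifies the second pharyngeal arch, was at -6.26 and -6.15 in siCONT, -5.42 and -6.22 in siUHRF1, -6.07 and -6.002 in siCONT + TSA, -4.68 and -5.74 in siUHRF1 + TSA and -3.70 in the 5-aza-dC sample. HOXC11 was at -4.56 and -5.08 in siCONT, -4.36 and -4.62 in siUHRF1, -4.06 and -5.01 in siCONT + TSA, -3.97 and -4.35 in siUHRF1 + TSA and -3.99 in the 5-aza-dC sample. Its value with 5-aza-dC was thus no higher than in siUHRF1 + TSA replicate 1, while the processed signals were 51.3 and 17.9.

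Since the siCONT signals of these genes were not well above background, only lower limits of the fold can be given, taken against the lowest signal well above background on each siCONT array or the gene's own signal where that was higher. HOXD13 was at least 26.8-fold higher on the 5-aza-dC array than in siCONT and HOXD10 at least 7.87-fold higher, and with spike-in scaling these limits were 7.24-fold and 2.13-fold. HOXD1 was at least 2.51-fold, HOXC12 at least 2.3-fold, HOXD11 at least 1.64-fold and HOXA2 at least 1.53-fold higher, and with spike-in scaling no limit above 1 remained for these 4 genes. With normexp background correction the log2 differences of HOXA2 and HOXD11 were -0.35 and -0.23. HOXC11 was at least 1.25-fold higher, and with spike-in scaling no limit above 1 remained and its log2 difference was -1.06. The filter admitted these 7 genes only through the 5-aza-dC array on which they were high, so that no test of them is given.

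**Figure D4:**
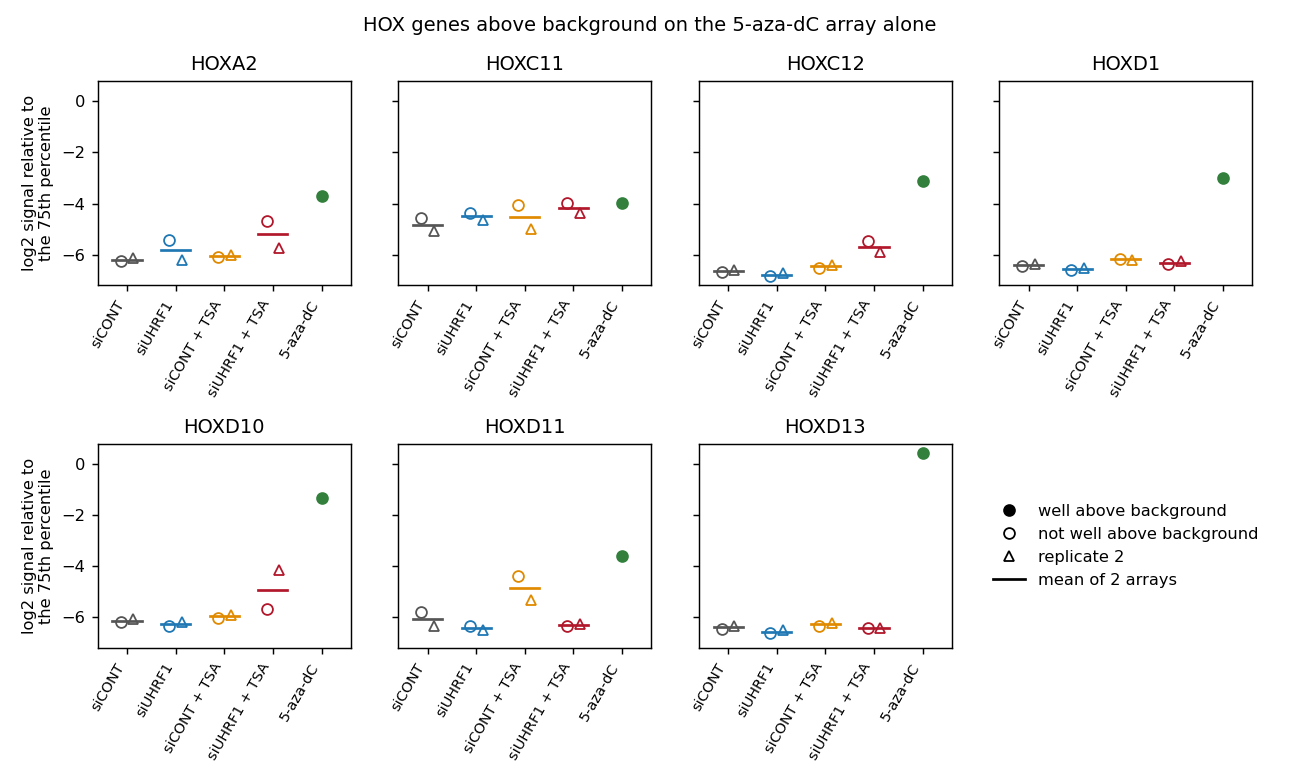
Log2 signal relative to the 75th percentile (vertical axis, shared) on the 9 arrays for the 7 HOX genes well above background on the 5-aza-dC array alone, with filled symbols for values well above background and open symbols for values that were not. The 5-aza-dC point is filled in every panel, at 0.43 for HOXD13 and -1.33 for HOXD10, and the siRNA points are open throughout.

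Because 5-aza-dC removes methylation from CpG sites, the sequences just upstream of some of these genes are shown. They are the 250 bases before the RefSeq start site on GRCh38.p14, in the direction of transcription, with each CG dinucleotide in capitals. Windows were at hand for 20 HOX genes (27 windows). HOXD13, HOXD10 and HOXD1 were detected on the 5-aza-dC array alone, and HOXA9 and HOXA11, detected throughout and called with TSA, are given for comparison.
HOXD13, chr2:176092471-176092720, plus strand: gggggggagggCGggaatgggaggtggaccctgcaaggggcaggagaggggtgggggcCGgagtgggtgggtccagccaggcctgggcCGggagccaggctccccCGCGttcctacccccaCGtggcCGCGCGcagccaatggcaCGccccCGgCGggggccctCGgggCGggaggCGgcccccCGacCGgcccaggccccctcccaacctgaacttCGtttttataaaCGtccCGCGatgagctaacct
HOXD10, chr2:176116528-176116777, plus strand: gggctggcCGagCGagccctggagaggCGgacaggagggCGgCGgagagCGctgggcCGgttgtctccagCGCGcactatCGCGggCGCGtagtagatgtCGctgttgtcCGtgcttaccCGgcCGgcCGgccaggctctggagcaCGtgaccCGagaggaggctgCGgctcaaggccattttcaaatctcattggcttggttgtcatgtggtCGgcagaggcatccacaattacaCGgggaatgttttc
HOXD1, chr2:176188418-176188667, plus strand: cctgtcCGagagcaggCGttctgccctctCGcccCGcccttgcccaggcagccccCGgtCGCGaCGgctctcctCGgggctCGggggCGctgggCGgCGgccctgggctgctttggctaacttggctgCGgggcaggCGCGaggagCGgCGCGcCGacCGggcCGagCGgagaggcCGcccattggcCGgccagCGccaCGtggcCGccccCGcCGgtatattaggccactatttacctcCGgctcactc
HOXA9, chr7:27165538-27165787, minus strand: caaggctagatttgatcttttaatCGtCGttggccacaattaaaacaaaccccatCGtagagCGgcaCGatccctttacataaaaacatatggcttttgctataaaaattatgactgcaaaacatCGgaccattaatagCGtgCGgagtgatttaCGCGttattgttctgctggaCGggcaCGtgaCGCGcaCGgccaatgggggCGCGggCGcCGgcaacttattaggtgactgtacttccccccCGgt
HOXA11, chr7:27185233-27185482, minus strand: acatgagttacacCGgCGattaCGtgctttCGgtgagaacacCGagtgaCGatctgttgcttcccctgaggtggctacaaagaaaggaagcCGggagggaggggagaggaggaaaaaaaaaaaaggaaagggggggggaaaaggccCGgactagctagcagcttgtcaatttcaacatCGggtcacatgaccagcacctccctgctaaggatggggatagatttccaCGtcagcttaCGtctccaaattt
The windows held 21 CG dinucleotides in HOXD13, 23 in HOXD10, 31 in HOXD1, 20 in HOXA9 and 11 in HOXA11. Windows at hand but not shown held 8 in HOXA2 and 23 in HOXD11, both detected on the 5-aza-dC array alone. The HOXA7 window, of a gene detected throughout and called with TSA, held 28. Over the 27 HOX windows the median was 19 and the range 0 to 40, beside a median of 11 over the 35116 windows of all genes, of which 93.9% held at least 1. The 5 windows of genes detected on the 5-aza-dC array alone had a median of 23 (8 to 31), and the 19 windows of genes detected on all 9 arrays had a median of 19 (0 to 40). Those 19 windows came from 12 genes. HOXA3 was counted several times, including the window with 0, and HOXC4 and HOXC5 had the same window. CG counts therefore overlapped between these classes, and methylation was not measured on these arrays.

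Among the 28 HOX genes detected on all 9 arrays, 9 were called higher on the 5-aza-dC array than in siCONT and 4 lower, beside 18.6% and 28.2% of the 15485 gene names detected likewise. Over every gene tested, including those detected on the 5-aza-dC array alone, 25.2% of gene names were called higher and 23.8% lower. Without either siCONT array 5 of the 28 were called higher (HOXA11, HOXB6, HOXC9, HOXC10 and HOXC13) and 2 lower (HOXA10 and HOXC5). The median over the 28 genes was 0.17, beside -0.11 for gene names detected likewise. Scaling on 7 spike-in probes instead of the 75th percentile lowered every 5-aza-dC difference by 1.89 on the log2 scale and moved the median of all probes to -1.87, and 8 of the 9 genes called higher (HOXA7, HOXA9, HOXA11, HOXB2, HOXB4, HOXB6, HOXC9 and HOXC13) then had negative differences. The changes below are therefore relative to the other genes of the array. HOXC10 differed by 2.37 ± 0.26 (SE, adjusted p = 0.001) and by 0.48 with spike-in scaling. HOXC9 differed by 1.29 ± 0.17 (SE, adjusted p = 0.00189), HOXC13 by 1.29 ± 0.20 (SE, adjusted p = 0.00342) and HOXB6 by 1.21 ± 0.11 (SE, adjusted p = 0.000466), and with spike-in scaling by -0.60, -0.60 and -0.68. HOXB8, the gene with the widest step under TSA, differed by 0.067 ± 0.29 (SE, adjusted p = 0.863) with 5-aza-dC and did not pass the test.

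The 4 genes called lower were HOXA10, HOXC5, HOXD8 and HOXD3. HOXA10 differed by -2.46 ± 0.44 (SE, adjusted p = 0.00566), HOXC5 by -1.07 ± 0.15 (SE, adjusted p = 0.00254), HOXD8 by -0.82 ± 0.20 (SE, adjusted p = 0.0168) and HOXD3 by -0.50 ± 0.15 (SE, adjusted p = 0.0396), and with spike-in scaling these differences were more negative. The HOXD3 call was lost under 7 of 19 alternatives, among them normexp, a median shift, the mean of all probes of a gene (-0.28) and leaving out either siCONT or either siCONT + TSA array. The HOXA10 probes disagreed: the brighter probe, whose ends span chr7:27211789-27213023 of hg19, fell, while the other, at chr7:27211235-27211294, was at 0.95 ± 0.42 (SE, adjusted p = 0.108). Over the alternatives the HOXA10 difference ran from -4.35 with spike-in scaling to -0.76, and the call was lost under 1 of 19. The second HOXD3 probe was at -0.054 ± 0.29 (SE, adjusted p = 0.889). Within the HOXD cluster, HOXD1, HOXD10, HOXD11 and HOXD13 came above background on the array on which HOXD3 and HOXD8, detected throughout, were lower on the scale of the 75th percentile.

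Members of a paralog group did not always move together. In paralog group 9, HOXA9 and HOXC9 were called higher with TSA alone, while HOXB9 differed by 0.080 ± 0.093 (SE, adjusted p = 0.618) and HOXD9 by 0.41 ± 0.11 (SE, adjusted p = 0.0716). In group 8, HOXB8 was called with TSA, HOXC8 differed by 0.50 ± 0.20 (SE, adjusted p = 0.158) and HOXD8 by -0.37 ± 0.16 (SE, adjusted p = 0.188). In group 10, HOXC10 was higher and the brighter HOXA10 probe lower on the 5-aza-dC array relative to other genes, and HOXD10 appeared there. In group 13 all 4 members were detected with 5-aza-dC, 3 of them in siCONT. In group 12 neither member was detected in siCONT, and HOXC12 was detected with 5-aza-dC. Differences between paralogs were not tested.

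Noncoding RNAs of the clusters included members that moved in the same comparisons. Of 18 listed, 8 were on the arrays and 6 were tested in the siRNA samples. HOXA11-AS, the antisense neighbour of HOXA11, was at -0.65 and -0.47 in siCONT, -0.51 and -0.23 in siUHRF1, 0.36 and 0.25 in siCONT + TSA, 0.48 and 0.83 in siUHRF1 + TSA and 0.49 in the 5-aza-dC sample, and rose by 0.87 ± 0.16 (SE, adjusted p = 0.0277) with TSA alone and by 1.21 ± 0.16 (SE, adjusted p = 0.005) with the combination. HOXB-AS3 and HOTAIR, a HOXC transcript, were also called higher with the combination, by 0.69 ± 0.18 (SE, adjusted p = 0.0413) and 0.41 ± 0.11 (SE, adjusted p = 0.0462), so that 3 of 6 were called higher and 0 lower, beside 16.0% and 8.12% of gene names. On the 5-aza-dC array 2 of 7 were called higher, beside 25.2% of gene names (HOTAIR and HOXA11-AS, both of which turned negative with spike-in scaling) and 3 lower, beside 23.8% (HOXD-AS1, HOXD-AS2 and HOTAIRM1). HOXD-AS1 was at -0.65 and -0.58 in siCONT, -0.98 and -0.61 in siUHRF1, -0.62 and -0.85 in siCONT + TSA, -1.15 and -0.73 in siUHRF1 + TSA and -2.23 in the 5-aza-dC sample.

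The Polycomb and trithorax genes were all detected, and some were called in the siRNA samples, beside 6.94% of gene names called higher and 3.88% lower with TSA alone and 16.0% and 8.12% with the combination. Of 11 genes of Polycomb repressive complex 2, which methylates histone H3 at lysine 27, PHF19 was called higher with TSA alone (1.04 ± 0.14 (SE, adjusted p = 0.0137)), and with the combination PHF19 was higher (0.87 ± 0.14 (SE, adjusted p = 0.00884)) and EZH2, the catalytic subunit, lower (-0.84 ± 0.15 (SE, adjusted p = 0.0128)). EZH2 was at 3.39 and 3.38 in siCONT, 3.15 and 3.37 in siUHRF1, 2.91 and 2.93 in siCONT + TSA, 2.35 and 2.74 in siUHRF1 + TSA and 3.07 in the 5-aza-dC sample. Of 12 genes of Polycomb repressive complex 1, CBX6 was called higher with TSA alone (0.61 ± 0.14 (SE, adjusted p = 0.0478)) and was also called with the combination. Of 10 trithorax and related genes, 0 were called with TSA alone. At an unadjusted limma p below 0.05 there were 3, beside 5246 of 17721 gene names. MEN1 and WDR5 were called higher and KMT2A lower with the combination (0.51 ± 0.093 (SE, adjusted p = 0.013), 0.54 ± 0.10 (SE, adjusted p = 0.0151) and -0.48 ± 0.13 (SE, adjusted p = 0.0411)). With siUHRF1 alone 0 of these 33 genes were called by limma, and 2 had an unadjusted p below 0.05, beside 1579 of 17721 gene names. On the 5-aza-dC array 4 Polycomb repressive complex 2 genes were called higher and 1 lower, 2 complex 1 genes higher and 5 lower, and 2 trithorax genes higher and 3 lower, beside 25.2% of gene names higher and 23.8% lower, and the genes called higher all turned negative with spike-in scaling.

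Cofactors and upstream signals of HOX genes included members called with the combination, beside 16.0% of gene names called higher and 8.12% lower. Of 9 TALE cofactors, 6 were tested, and PKNOX1 and MEIS3 were called higher with the combination (0.50 ± 0.11 (SE, adjusted p = 0.0251) and 0.99 ± 0.24 (SE, adjusted p = 0.0334)). With 5-aza-dC PKNOX1 was called higher, with a negative difference under spike-in scaling, and MEIS1, a leukaemia cofactor of HOXA9, was at least 1.46-fold higher, a limit that fell below 1 with spike-in scaling. Of 16 retinoic acid genes, 8 were tested in the siRNA samples, and with the combination RXRA was called higher by 0.39 ± 0.088 (SE, adjusted p = 0.024) and STRA6, a retinol transporter below background in siCONT, was at least 1.72-fold higher. On the 5-aza-dC array 4 of 13 were called higher and 2 lower, beside 25.2% and 23.8% of gene names, counts that include genes admitted by the filter through that array alone. CYP26A1, which degrades retinoic acid, was at -4.23 and -4.75 in siCONT, -4.21 and -4.11 in siUHRF1, -6.02 and -5.70 in siCONT + TSA, -6.12 and -5.97 in siUHRF1 + TSA and -0.27 in the 5-aza-dC sample, and was at least 15.8-fold higher (4.27-fold with spike-in scaling). ALDH1A3, which makes retinoic acid, was at least 12.6-fold higher (3.4-fold with spike-in scaling), while RARG was called higher with a negative difference under spike-in scaling, and CRABP2 and RXRA were called lower. Of 9 ParaHox and HOX-linked homeobox genes, 5 were tested and MNX1 was called lower in siUHRF1 + TSA than in siUHRF1 (-0.54 ± 0.11 (SE, adjusted p = 0.026)), beside 5.45% of gene names.

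Markers of other cell types moved in the same comparisons. Of 5 fibroblast markers, COL1A1 was called higher with the combination, COL1A2 and DCN were above background only with the combination among the siRNA groups, at least 4.06-fold and 1.23-fold higher than in siCONT, and COL3A1 was below background on all 9 arrays. With 5-aza-dC COL1A2 was at least 3.05-fold higher, a limit that fell below 1 with spike-in scaling, and LUM, above background on 1 siCONT array, was lower. The summed fibroblast level, in multiples of the 75th percentile, was 0.272 and 0.242 in siCONT, 0.294 and 0.477 in siUHRF1, 0.573 and 0.549 in siCONT + TSA, 0.816 and 1.04 in siUHRF1 + TSA and 0.563 in the 5-aza-dC sample, and COL1A1 was the brightest probe throughout. Of 3 endothelial markers, VWF was below background in siCONT and was at least 1.94-fold higher with siUHRF1, 2.44-fold with TSA and 10.5-fold with the combination, and at least 1.61-fold with 5-aza-dC, where it turned negative with spike-in scaling. PECAM1 was below background on all arrays, and the summed endothelial level was 0.163 and 0.159 in siCONT and 0.684 and 0.552 in siUHRF1 + TSA. Of 3 leukocyte markers, 1 was bright enough to be tested in the siRNA samples and did not pass in any comparison, and CD14 was at least 6.98-fold higher on the 5-aza-dC array (1.89-fold with spike-in scaling), where all 3 were above background and the summed level was 0.625, against 0.105 and 0.16 in siCONT. Of the epithelial markers, KRT18 was called higher with the combination, KRT19 was above background only with the combination among the siRNA groups, at least 4.25-fold higher than in siCONT, and the summed level, led by KRT18, was 50.2 and 50.9 in siCONT, 94.5 and 77.3 in siUHRF1 + TSA and 48.5 in the 5-aza-dC sample. With 5-aza-dC KRT19 was at least 13.3-fold higher (3.6-fold with spike-in scaling), and EPCAM was at -3.26 and -6.32 in siCONT, where 1 array was above background, and at -0.10 in the 5-aza-dC sample. All 9 samples came from the RKO cell line, so these values are signals of marker genes and not counts of cell types. The part of these genes in the HOX results was not tested. A change in the share of cells expressing a gene and a change in RNA per cell cannot be told apart in bulk RNA.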

How the data were processed

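RNA from 9 RKO samples was measured on Agilent single-colour arrays. The authors deposited scanner files of Feature Extraction 10.7 (10.7.3.1 in the file headers), in which the spot intensity is background-subtracted and not normalized between arrays. The labels give no normalization, and the authors' methods name GeneSpring GX. From the deposited intensity the log2 processed signal minus the array's 75th percentile was taken. Outlier spots were left out, spots of a probe were averaged, and a gene was represented by its brightest probe over the 9 arrays. Probes well above background on every array of at least 1 group were fitted by lmFit and tested by eBayes (limma 3.58.1, R 4.3.3), with p-values adjusted over all probes tested (Benjamini-Hochberg) and a threshold of 0.05. The 6 siRNA contrasts were fitted on the 8 siRNA arrays (23703 probes, 17721 gene names), and the 5-aza-dC contrast on all 9 (27142 probes, 20261 gene names). A logged difference is a mean of log2 values. The script was tested on simulated data. Accessions gave the same RefSeq symbol for 43 of 45 HOX probes. Named genes were UHRF1, every HOX gene and, from each list, at most 5 called members. A few genes of these lists are counted but not reported by name here. Lists held TALE cofactors, ParaHox and HOX-linked homeobox genes, cluster noncoding RNAs, Polycomb complexes, trithorax genes, retinoic acid genes and markers of 4 cell types. The HOX genes and the lists were chosen with earlier results of these data known. Alternatives were other background corrections, normalizations, filters, arrays in the fit, variance models, probes for a gene, the deposited value table, the methods' t-test and leaving out each array.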

Additional observations from a re-analysis of the deposited data

How the results depend on the processing

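Detection rested on the flag for signal well above background. When a positive signal significantly over background sufficed, 29 HOX genes were detected in siCONT, 31 in siUHRF1, 31 in siCONT + TSA and 35 in siUHRF1 + TSA, in place of 28 each. The share of all gene names by that looser flag is not given here. For siUHRF1 against siCONT the calls numbered 2 at an unadjusted limma p, 2 by the methods' t-test unadjusted and 0 (0 to 0) when each array was left out. For siCONT + TSA against siCONT they numbered 13 unadjusted, 1 with normexp, 1 with spike-in scaling, 4 with no filter, 17 with only the arrays compared (16 higher and 1 lower), 16 by the unadjusted t-test, and 0 to 10 when each array was left out, 0 without either siCONT or either siCONT + TSA array. For siUHRF1 + TSA against siCONT they numbered 7 with normexp, 6 with spike-in scaling, 8 with no filter, 0 by the adjusted t-test and 5 to 14 when each array was left out. For siUHRF1 + TSA against siCONT + TSA they numbered 4 unadjusted, 4 by the unadjusted t-test, 1 with the trended and robust prior (HOXC13) and 0 to 1 when each array was left out, 1 without either siUHRF1 array. For siUHRF1 + TSA against siUHRF1 they numbered 15 unadjusted, 3 with normexp, 3 with spike-in scaling, 2 with only the arrays compared, 0 by the adjusted t-test and 5 to 13 when each array was left out. The interaction gave 2 unadjusted and 0 to 0 when each array was left out. For 5-aza-dC the calls numbered 30 with spike-in scaling (4 higher, none of them among the 28 genes detected throughout, and 26 lower) and 13 to 22 when each array was left out, counts that include genes admitted by the filter only through that array. The cause of these changes was not tested, except that leaving out an array leaves 1 in its group. The unadjusted limma counts stand beside all 17721 gene names. Of these, 1579 were below 0.05 for siUHRF1, 5246 for TSA alone and 3165 for siUHRF1 + TSA against siCONT + TSA. There were 5919 for siUHRF1 + TSA against siUHRF1 and 883 for the interaction.

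With spike-in scaling the 5-aza-dC differences were -1.13 for HOXA7, -1.36 for HOXA9, -0.83 for HOXA11, -1.52 for HOXB2, -1.35 for HOXB4, -0.68 for HOXB6, -0.60 for HOXC9 and -0.60 for HOXC13, and with normexp they were -0.35 for HOXA2 and -0.23 for HOXD11. Of the other values for called HOX genes, none changed sign. Of the listed genes other than HOX genes, 13 of 36 called with 5-aza-dC turned negative with spike-in scaling, and none called in an siRNA comparison turned. Spike-in scaling rests on 7 probes, and moved TSA differences by -0.11 and the median of all probes from 0.067 to -0.047.

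With the replicate number as a block the calls were 0 for siUHRF1, 7 for TSA, 1 (HOXC10) for siUHRF1 + TSA against siCONT + TSA, 14 for the combination, 9 for TSA in depleted cells and 0 for the interaction. Differences between replicates 1 and 2 correlated across probes at 0.466 between siUHRF1 and siUHRF1 + TSA, which share siRNAs, and between -0.0473 and 0.0796 for the other pairs of groups, so that the numbers do not pair all samples. Precision is limited by 2 arrays a group, by 1 array for 5-aza-dC, and by background for the 11 HOX genes not detected in the siRNA samples.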
